A study of Mus musculus with 7 samples.

Results

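Dmrta1, Klc1, Gm9797 and Abhd2, 4 loci of murine liver, were examined for how far a strong gain of chromatin accessibility with age reaches. They were chosen by measured values, since each holds 1 of the 5 regions with the largest log2 fold changes of aged over young liver among regions that passed an adjusted p of 0.05 and in which every aged library lay above every young one. That region is called the lead region below. All regions that overlap the gene or the 100 kb on either side of it were then taken, which gave 40 of the 55680 regions counted, namely 4 lead regions and 36 neighbours. The question was whether each gain was 1 region or was shared by the regions around it.

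Accessibility was measured by ATAC-seq, in which the Tn5 transposase inserts sequencing adapters into exposed DNA, on nuclei from the livers of male C57BL/6N mice aged 3 months (young, 3 libraries) or 18 months (aged, 4 libraries). No treatment or mutation was involved. The aged libraries come from 3 animals according to the series description, which states that different lobules of a liver were used as separate replicates without naming the libraries, so p-values measure only the spread between libraries. Counts in regions summed to between 4474652 and 25461110 per library. Values are given as CPM, the reads of a region relative to the total of its library, after TMM scaling, which sets libraries equal over the bulk of regions. Whole liver was used, so fewer cells of a type with an open site and less access per cell cannot be told apart.

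Open chromatin sites of a liver nucleus are mostly promoters, where transcription starts, and distal elements in introns and between genes that bind transcription factors. Dmrta1 (also known as Dmrt4) encodes a transcription factor with the zinc-finger DM domain that is shared with sex-determining factors of flies and worms. Klc1 encodes a kinesin light chain, the subunit through which the microtubule motor kinesin-1 holds its cargo. Abhd2 encodes an alpha/beta hydrolase that cleaves lipids, including monoacylglycerols. Gm9797 is annotated as a transcribed processed pseudogene, a copy of an mRNA put back into the genome.

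The lead regions lay at different kinds of sites (GRCm38, GENCODE M21). The Dmrta1 lead region, chr4:89687910-89689177, covered the TSS of the protein-coding transcript at 89688198. Of its 1268 bases 742 lay in exons, 631 of them coding. The TSS of the second annotated transcript of Dmrta1 lay 8474 bp upstream of the region. The Klc1 lead region, chr12:111793969-111794338, lay inside the gene, 35120 bp after its first base (chr12:111758849-111807844, plus strand), with 368 of its 370 bases in an intron and 2 in an exon. The nearest annotated TSS of Klc1 lay 1014 bp from it, and no counted region covered that TSS. The Gm9797 lead region, chr10:11608499-11609050, ended 173 bp before the pseudogene (chr10:11609223-11609835, plus strand). The Abhd2 lead region, chr7:79340805-79341203, lay wholly in an intron, 67606 bp into the gene (chr7:79273199-79365508, plus strand).

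The sequences below, from the RefSeq copy of GRCm38.p6 and read on the plus strand, show what kind of DNA gained access: the 250 bases before the Dmrta1 TSS and the central 300 bases of each other lead region. Capitals mark matches, on either strand, to GGGCGG (the GC box of Sp1-type factors), CCAAT (the CCAAT box), TTGCNNAA (a core of C/EBP sites) or AGGTCA (a nuclear receptor half-site).
Dmrta1 (chr4:89687948-89688197): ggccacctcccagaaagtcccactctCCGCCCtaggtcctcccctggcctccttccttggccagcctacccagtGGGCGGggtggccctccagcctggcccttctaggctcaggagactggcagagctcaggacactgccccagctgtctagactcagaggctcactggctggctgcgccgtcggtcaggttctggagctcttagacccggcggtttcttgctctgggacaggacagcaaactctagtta
Klc1 (chr12:111794004-111794303): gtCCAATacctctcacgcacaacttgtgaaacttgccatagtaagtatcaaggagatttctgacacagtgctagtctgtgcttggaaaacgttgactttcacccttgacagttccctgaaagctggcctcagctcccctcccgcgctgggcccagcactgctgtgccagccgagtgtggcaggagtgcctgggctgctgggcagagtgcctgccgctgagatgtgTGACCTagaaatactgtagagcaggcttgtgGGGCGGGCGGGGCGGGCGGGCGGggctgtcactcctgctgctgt
Gm9797 (chr10:11608625-11608924): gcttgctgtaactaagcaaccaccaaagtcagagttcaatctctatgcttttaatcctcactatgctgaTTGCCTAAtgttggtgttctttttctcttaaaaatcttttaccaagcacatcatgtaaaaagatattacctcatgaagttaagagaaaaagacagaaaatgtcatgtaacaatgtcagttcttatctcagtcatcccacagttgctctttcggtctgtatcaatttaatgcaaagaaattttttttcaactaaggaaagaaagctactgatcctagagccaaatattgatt
Abhd2 (chr7:79340855-79341154): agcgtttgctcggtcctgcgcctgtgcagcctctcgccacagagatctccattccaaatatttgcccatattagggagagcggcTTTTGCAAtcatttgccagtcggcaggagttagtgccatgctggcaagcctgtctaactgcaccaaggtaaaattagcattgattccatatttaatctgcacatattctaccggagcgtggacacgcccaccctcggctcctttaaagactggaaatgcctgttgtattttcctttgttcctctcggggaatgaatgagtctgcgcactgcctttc

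The 4 lead regions shared no common base composition. The Dmrta1 region held 85 CpG dinucleotides and 61.6% G and C, and the Klc1 region 13 and 58.6%. The Gm9797 region held only 3 CpG dinucleotides in 552 bases and 39.1% G and C, and the Abhd2 region 19 in 399 bases and 51.6%, against a median of 49.4% over all regions. GGGCGG matched 4 times in the whole Dmrta1 lead region, 5 times in overlap within 1 run in Klc1 and once in Abhd2. At the length of these regions, 35.3%, 21.1% and 21.9% of all regions held it. TTGCNNAA matched once each in Dmrta1, Gm9797 and Abhd2, where 44.6%, 24.2% and 18.7% of all regions did. CCAAT matched once in Klc1 (37.7% of all regions) and once in Abhd2 (39.9%), and AGGTCA once in Klc1 (28.2%). No match was found in any of the 4 to the TATA box (TATAAA), the cyclic AMP response element (TGACGTCA), the core bound by Fos and Jun proteins (TGANTCA), the E-box of basic helix-loop-helix factors (CACGTG), the core of hepatocyte nuclear factor HNF4 sites (CAAAGTCCA) or the forkhead core (TGTTTAC).

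The Abhd2 lead region was the only one of the 40 that was repeated elsewhere in the genome. All of its bases were soft-masked as repeat, and blastn found 35 other places that covered at least 80% of it at 95% identity or more, the closest at 99.75% on chromosome 2. The other 39 regions had no place of that cover and identity. Reads of low mapping quality had been removed, and what part of the remaining reads at this region came from a copy was not tested. Among 304 regions with at least 95% of their bases masked, 12 (3.95%) were called higher and 104 (34.2%) lower in aged liver, where 2.44% and 3.3% of all regions were, and their median log2 fold change was −0.65, against −0.04 over all regions. They were also weaker, with a median mean log2 CPM of 1.45 compared with 3.12.

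At the Dmrta1 promoter, accessibility was 6.76, 9.41 and 6.41 CPM in young replicates 1 to 3 and 35.4, 36.3, 27.3 and 35.8 CPM in aged replicates 1 to 4. The lowest aged library stood above the highest young one, as the choice of all 4 lead regions required. The means were 7.53 ± 1.64 CPM (n = 3, SD) and 33.7 ± 4.27 CPM (n = 4, SD), a log2 fold change of 2.12 (SE 0.18). This was the most deeply covered of the 4 lead regions, with 39 to 249 reads per young and 117 to 403 per aged library.

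In the Klc1 intron, the young libraries gave 2.78, 2.83 and 2.96 CPM and the aged ones 13.4, 13.1, 14.0 and 9.29 CPM. The young libraries had an SD of 0.093 CPM, and aged replicate 4 was the lowest of its group. The means were 2.86 CPM and 12.5 ± 2.15 CPM (n = 4, SD), and the log2 fold change was 2.12 (SE 0.23).

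Upstream of Gm9797, the young libraries gave 0.926, 0.945 and 1.97 CPM, from 10, 25 and 12 reads. The aged ones gave 7.73, 12.7, 7.24 and 3.05 CPM, from 88, 65, 31 and 24 reads. This was the largest gain among the regions that met both conditions, with a log2 fold change of 2.70 (SE 0.45), and its aged libraries spread widely about their mean, at 7.69 ± 3.97 CPM (n = 4, SD) against 1.28 ± 0.60 CPM (n = 3, SD). Aged replicate 4 was the lowest and aged replicate 2 the highest.

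The Abhd2 intron region had very few reads in young liver, with 0.278, 0.416 and 0.822 CPM from 3, 11 and 5 reads. Aged libraries gave 1.76, 2.75, 3.97 and 2.67 CPM from 20, 14, 17 and 21 reads. The log2 fold change was 2.53 (SE 0.46), from a mean of 0.505 ± 0.283 CPM (n = 3, SD) to 2.79 ± 0.91 CPM (n = 4, SD). So few reads make the size of this gain the least certain of the 4. No p-value is given for these 4 differences, because the regions were picked for them and for passing the test.

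**Figure D1:**
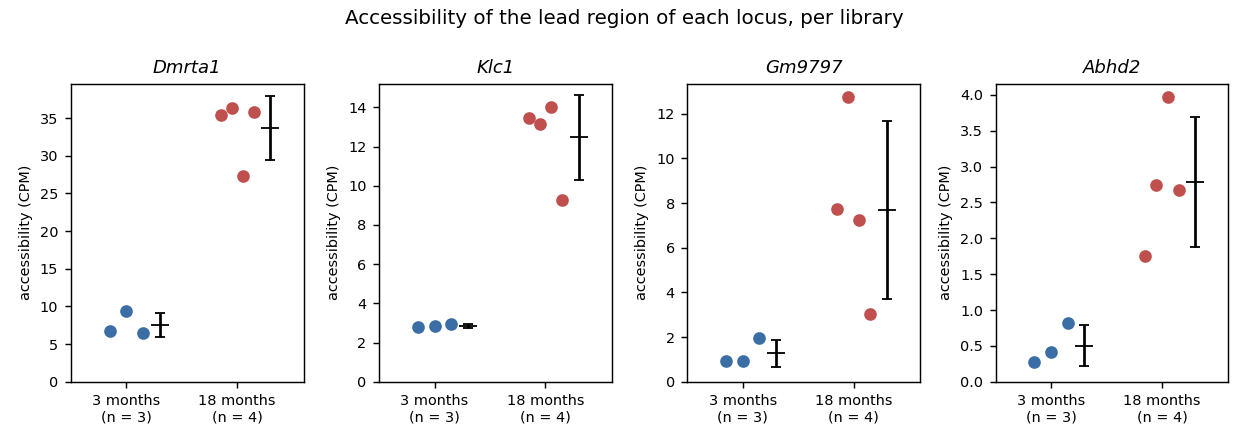
Accessibility (CPM, linear axis from 0) of the lead region of each locus in the 3 young and 4 aged libraries, 1 point per library, with the mean and SD beside the points. In each panel every aged library lies above every young one, as the choice of these regions required. Aged values run from 27.3 to 36.3 CPM for Dmrta1, 9.29 to 14.0 for Klc1, 3.05 to 12.7 for Gm9797 and 1.76 to 3.97 for Abhd2.

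The 4 regions hold ranks 1 (Gm9797), 3 (Abhd2), 4 (Dmrta1) and 5 (Klc1) of the gains. Klc1 was just inside that limit, and an intergenic region at chr3:81386893-81387607 followed at 2.09. Rank 2, at 2.64, belonged to an intergenic region on chromosome 10 whose nearest protein-coding gene lay 322237 bp away, so it stands for no gene here. Among all 55680 regions, the mean CPM in young liver stood at the percentiles 43.2 (Dmrta1), 8.96 (Klc1), 0.268 (Gm9797) and 0.00359 (Abhd2), and that in aged liver at 83.7, 61.0, 47.2 and 14.5. A low young level is in part fixed by choosing regions for a large fold change.

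Dmrta1 and Gm9797 were isolated peaks. No other counted region lay within 100 kb of Dmrta1 or of Gm9797, so whether the gain was shared could not be tested at either. Reads outside the counted regions were not examined. Of 21938 protein-coding genes, 1122 (5.11%) had a single region in a window of this size, and the median gene had 9. The nearest region to the Dmrta1 promoter lay 162767 bp upstream and gave 2.88 ± 0.26 CPM (n = 3, SD) in young and 2.76 ± 0.42 CPM (n = 4, SD) in aged liver. The second region upstream, 201508 bp away, had a log2 fold change of −0.31 and was not called. The third, 376569 bp away, was the promoter of Cdkn2b, a cyclin-dependent kinase inhibitor. It stood at 26.3 ± 1.86 CPM (n = 3, SD) and 34.2 ± 2.22 CPM (n = 4, SD), a log2 fold change of 0.39, and was not called (edgeR adjusted p = 0.0732). Every aged library lay above every young one there, as in 20.4% of all promoter regions. On the downstream side the next region was 393377 bp away (log2 fold change 0.14, adjusted p = 0.82 by edgeR).

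Around Gm9797 the nearest region, 116242 bp upstream, had 36.2 CPM in young and 36.4 CPM in aged liver on average. The promoter of Epm2a, which encodes the glycogen phosphatase laforin, lay 264470 bp upstream and had a log2 fold change of 0.38 (edgeR adjusted p = 0.0634). Every aged library lay above every young one there, again as in 20.4% of all promoter regions. The nearest downstream region, 452494 bp away, had −0.59 (adjusted p = 0.355 by edgeR). With windows of 250 kb, 2 neighbours of Dmrta1 and 1 of Gm9797 came in, and neither locus gained a call.

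The Klc1 and Abhd2 lead regions stood among many peaks. None of these had a log2 fold change as large, which follows in large part from choosing the lead regions for theirs. None of the 23 Klc1 neighbours and none of the 13 Abhd2 neighbours was called higher in aged liver by edgeR, against 2.44% of all regions, and among 36 regions a count of 0 is near that background. Lower calls were 2 in the Klc1 window and 0 in the Abhd2 window, against 3.3% of all regions. At an unadjusted p under 0.05, 3 neighbours were higher and 7 lower, against 11.9% and 12.7% of all regions. In 3 of the 36 every aged library lay above every young one, against 10.2% of all regions and so again near the background, and in 5 every aged library lay below, against 11.6%. The neighbours had a median log2 fold change of −0.11, compared with −0.04 over all regions, and 13 of 36 (36.1%) were above 0, against 46.6% of all regions. The largest value among them was 0.85. Around all 1360 regions called higher, by comparison, 6.09% of the regions within 100 kb were also called higher and 1.87% lower, and 57.2% had a log2 fold change above 0. That distance was measured from the called region, whereas the 36 neighbours were taken within 100 kb of the gene, so the sets are not fully alike.

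The count of 0 rose under some settings. DESeq2 called 1 neighbour higher, the Klc1 exon region described below, where it called 4.96% of all regions higher. Correcting the libraries for GC content called 3 of 36, while the share of all regions called higher rose to 9.84% with 3.51% lower. These 3 were the Klc1 exon region (log2 fold change 1.00), the Xrcc3 and Zfyve21 promoter (0.48) and the Abhd2 promoter (0.39).

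**Figure D2:**
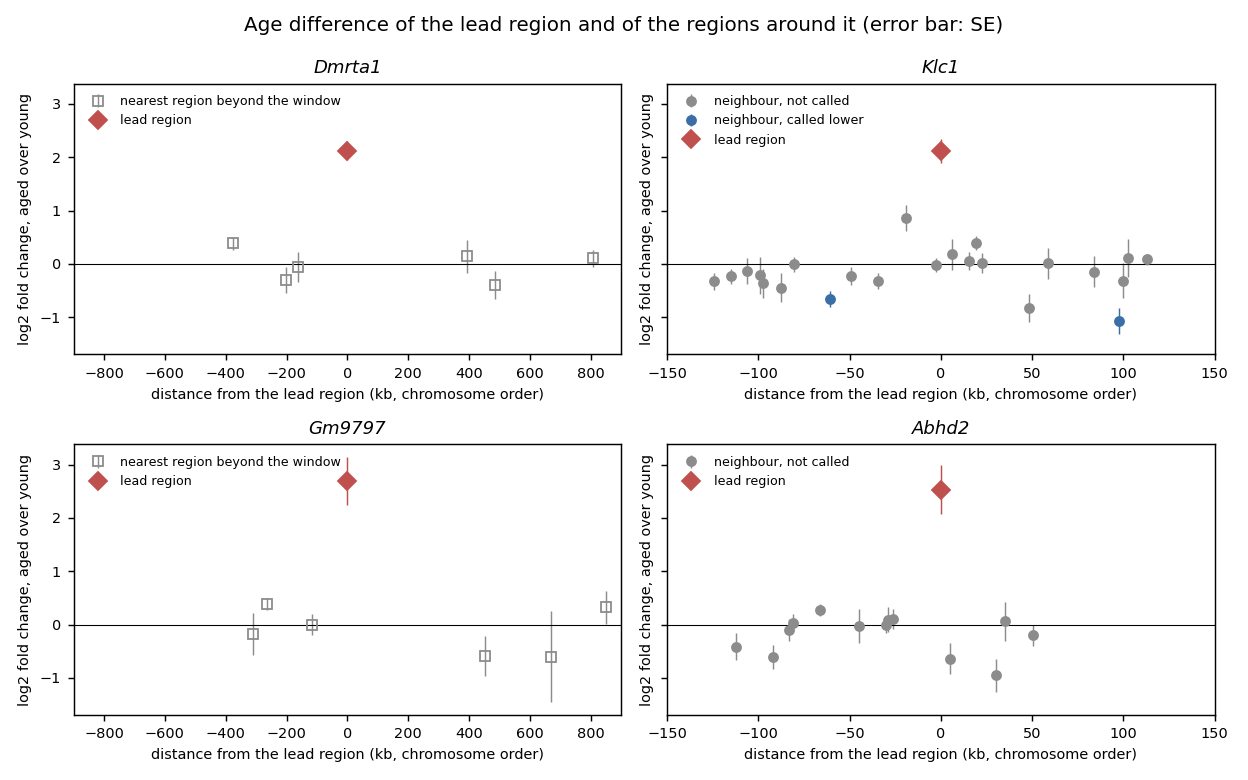
Log2 fold change (aged over young, error bars SE) of the lead region (diamond) and of the regions around it against distance in kb. Squares in the Dmrta1 and Gm9797 panels are the nearest regions, all beyond the 100 kb windows. Lead regions, which were chosen for large gains, lie between 2.12 and 2.70, and neighbours lie between −1.07 and 0.85.

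Within Klc1 itself, the promoter regions that were counted did not move with the intron region. The TSS nearest to the intron region had no counted region. The promoter region at the first TSS (chr12:111758206-111759757) had 28.2, 22.6 and 28.6 CPM in young and 22.7, 17.7, 20.8 and 22.4 CPM in aged libraries. The groups overlapped, with a log2 fold change of −0.32 (SE 0.15, edgeR adjusted p = 0.192). The promoter region of shorter Klc1 transcripts (chr12:111789302-111791318), which ended only 2651 bp before the lead region and is the nearest neighbour, had means of 49.4 ± 3.67 CPM (n = 3, SD) and 48.5 ± 6.01 CPM (n = 4, SD). Its log2 fold change was −0.02 (SE 0.12, edgeR adjusted p = 0.935). The nearest region on the other side, 6174 bp away in another intron, gave 3.26 ± 0.026 CPM (n = 3, SD) and 3.67 ± 1.07 CPM (n = 4, SD).

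A single region of Klc1 came nearest to following the lead region. It overlapped an exon 19145 bp upstream (chr12:111773925-111774824) and gave 5.46, 4.42 and 4.93 CPM in young and 11.9, 7.06, 8.87 and 7.13 CPM in aged libraries. Every aged library lay above every young one. The log2 fold change of 0.85 (SE 0.25) missed the threshold (edgeR adjusted p = 0.0557). It was called under 6 of 20 other settings, over which the edgeR or DESeq2 adjusted p ran from 0.0174 to 0.182, and it was called without aged replicate 4, with a log2 fold change of 0.97.

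The 2 neighbours called lower were both in other genes. The promoter of Gm15996, a predicted gene within Apopt1 (chr12:111731480-111733415), fell from 22.5 ± 1.67 CPM (n = 3, SD) to 14.1 ± 1.61 CPM (n = 4, SD), a log2 fold change of −0.66 (edgeR adjusted p = 0.0268). An intronic region of Ppp1r13b, which encodes the p53-binding protein ASPP1 (chr12:111891896-111892703), fell from 9.16, 6.69 and 5.59 CPM in young to 3.51, 3.53, 3.27 and 3.31 CPM in aged libraries. Its log2 fold change was −1.07 (edgeR adjusted p = 0.0271). Each was called under 14 of 20 other settings, and neither was called without aged replicate 1, aged replicate 3, young replicate 1 or young replicate 2, when the count of lower neighbours was 0. A second Ppp1r13b intron region had every aged library below every young one without passing (log2 fold change −0.83, adjusted p = 0.0781 by edgeR).

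The remaining promoters of the Klc1 window showed small differences. The region with the most reads in the window, though not per kb, was the shared promoter of Xrcc3, which acts in homologous recombination repair, and Zfyve21. It had 90.5, 97.2 and 70.2 CPM in young and 110.0, 100.2, 110.9 and 132.1 CPM in aged libraries. Every aged library lay above every young one. Its log2 fold change was 0.39 (edgeR adjusted p = 0.0916). The promoters of Trmt61a, a tRNA methyltransferase subunit, of Apopt1 with Bag5, a co-chaperone, of Xrcc3 and of Ppp1r13b had log2 fold changes of −0.23, −0.01, 0.06 and 0.08, none of them called by edgeR. Over the 8 promoter neighbours of Klc1 the log2 fold changes ran from −0.66 to 0.39.

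In the Abhd2 window the promoter of the gene was the strongest peak and differed little. It is shared with the predicted gene Gm31510 (chr7:79272715-79274445) and gave 52.7, 60.2 and 49.5 CPM in young and 60.8, 67.9, 73.1 and 61.7 CPM in aged libraries. The groups were separate by a small margin only, and the log2 fold change of 0.27 (SE 0.12) was not called (edgeR adjusted p = 0.164). The 4 intronic neighbours upstream of the lead region had log2 fold changes from −0.02 to 0.11, and the nearest of them lay 26481 bp away.

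On the other side, 4823 bp from the lead region and in the same gene, accessibility went the other way in value. That region gave 8.05, 9.11 and 5.59 CPM in young and 4.83, 7.26, 5.37 and 2.80 CPM in aged libraries, with overlapping groups and a log2 fold change of −0.65 (edgeR adjusted p = 0.189). An intergenic region 30321 bp away had every aged library below every young one, at −0.96 (edgeR adjusted p = 0.0789). The promoter of Fanci, a Fanconi anaemia repair gene, stood at −0.21 and was not called.

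In the Klc1 and Abhd2 windows the gains were small parts of the summed accessibility, whereas at Dmrta1 and Gm9797 the lead region was the only one counted. The Klc1 lead region gave 0.60% to 0.67% of the CPM in its window in young and 2.00% to 3.10% in aged libraries, and per kb it went from place 21 to place 5 of 24. Without it the window held 444.9 ± 12.5 CPM (n = 3, SD) in young and 439.1 ± 19.3 CPM (n = 4, SD) in aged liver, a difference of −5.84 CPM beside the 9.61 CPM that the lead region gained. The Abhd2 lead region gave 0.17% to 0.48% in young and 0.95% to 2.05% in aged libraries, and went per kb from place 14 to place 10 of 14. The other 13 regions held 179.4 ± 17.9 CPM (n = 3, SD) and 179.6 ± 17.3 CPM (n = 4, SD). The differences between the window sums were within the spread of the libraries.

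**Figure D3:**
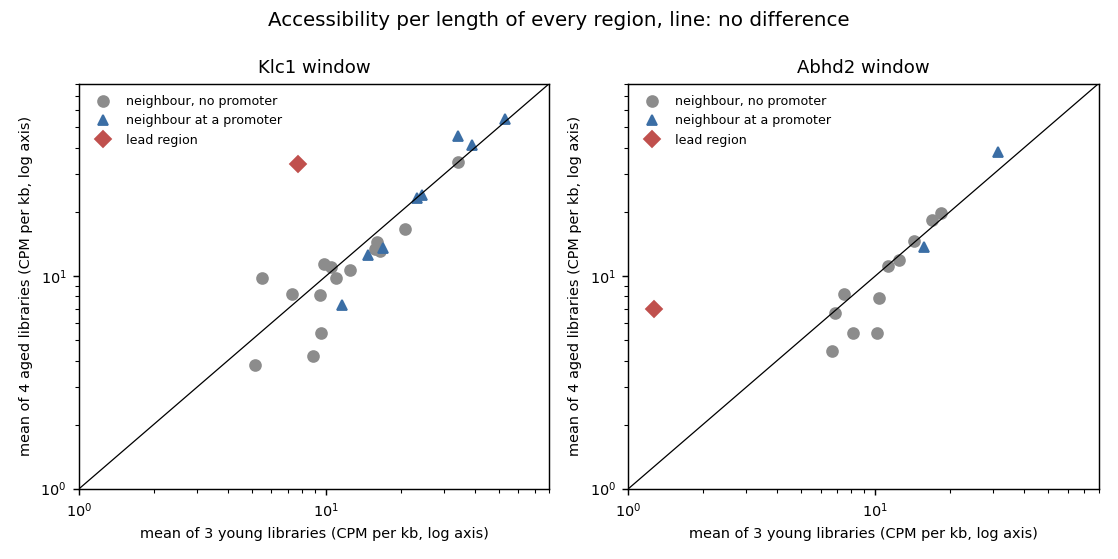
Mean accessibility per kb in aged against young liver for each region of the Klc1 and Abhd2 windows, on log axes, with the line of no difference. The lead regions (diamonds) lie at 7.72 (young) and 33.7 (aged) CPM per kb for Klc1 and at 1.27 and 6.98 for Abhd2. They lie farther above the line than any neighbour, which follows in large part from choosing them for large gains.

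Of the promoters of related genes, edgeR called 0 higher and 1 lower. DESeq2 called some of them higher, and so did offsets on GC content. Of 8 DM domain genes, only Dmrta1 and Dmrt2, a factor of muscle and somite development, had a promoter region. Dmrt2 fell from 6.48, 3.89 and 5.59 CPM in young to 2.02, 1.37, 1.40 and 2.04 CPM in aged libraries, a log2 fold change of −1.55 (edgeR adjusted p = 0.0151), opposite in sign to Dmrta1. It was called under 15 of 19 other settings. Among promoter regions of all genes, 4.48% were called higher and 2.06% lower, with a median of 0.09.

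Of 7 kinesin-1 genes 6 had a promoter region and none was called by edgeR in either direction, while offsets on GC content called Klc4 higher. Their log2 fold changes ran from −0.56 to 0.30, with the closest paralog of Klc1, Klc2, at 0.11 (SE 0.12). Of 7 cargo adaptors of kinesin-1, 4 had one and edgeR called none. The largest difference in value was at Clstn2, a calsyntenin (−0.85, edgeR adjusted p = 0.0633), which was called lower with total counts, with aged libraries 2 and 4 summed and without aged replicate 2.

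Among 21 alpha/beta hydrolase domain genes 19 had a promoter region, Abhd14a and Abhd14b sharing one, and edgeR called none. Counted by gene, with that pair as 2, 16 of 19 were above 0 in value, with a median of 0.27. In 11 genes, both of the pair among them, every aged library lay above every young one, against 20.4% of all promoter regions. DESeq2 called 5 of these genes higher (Abhd8, Abhd17a, Abhd17c and, through their shared region, Abhd14a and Abhd14b), against 4.96% of all regions. Summing aged libraries 2 and 4 called 4 genes, 2 of them through that region, against 3.89% of all regions. Offsets on GC content called 11 genes, again with both of that pair, against 9.84% of all regions, with 18 of 19 above 0 and a median of 0.39. The replicate block called Abhd17a and leaving out aged replicate 2 called Abhd17c. All regions are not a like background for promoters, since edgeR called 4.48% of promoter regions higher against 2.44% of all regions. The promoter share under the other settings was not computed. With offsets on mean abundance none was called, 11 of 19 were above 0 and the median was 0.02. Abhd17c was the closest to the threshold (0.37, edgeR adjusted p = 0.0524). Of 10 lipid hydrolase genes, such as Mgll, the monoacylglycerol lipase, and Lipc, the hepatic lipase, all had a promoter region and edgeR called none. Lipc (log2 fold change 0.46) was called higher under 6 of 20 other settings, DESeq2 among them, Lipe with offsets on GC content and Ces1f with the replicate block. The list median of 0.10 was 0.18 with offsets on GC content and turned to −0.01 with total counts and −0.08 with offsets on mean abundance.

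The liver label was checked against hepatocyte markers, of which 8 of 8 had a promoter region. Apoa1, the main protein of high-density lipoprotein, was called higher (log2 fold change 0.53, edgeR adjusted p = 0.0331, called under 10 of 20 other settings), and the list summed to 653 to 729 CPM in young and 801 to 928 CPM in aged libraries. The largest part of that difference came from Apoa1 itself (means of 187 and 271 CPM). Cps1, a urea cycle enzyme (0.59), was called higher with DESeq2, with offsets on GC content and with the replicate block, Hnf4a with offsets on GC content and Ttr without aged replicate 4. The hepatocyte median of 0.27 went to 0.00 with offsets on mean abundance. The stellate cell list, with 3 of 6 markers, summed to 26.6 to 29.1 CPM in young and 16.1 to 23.5 CPM in aged libraries, most of it from Reln (means of 18.7 and 11.7 CPM). Its median of −0.36 was −0.12 with offsets on mean abundance, and edgeR called none of its markers, while Reln was called lower with total counts, with the replicate block and with aged libraries 1 and 4 summed. Sinusoidal endothelial (3 of 6), cholangiocyte (3 of 6) and Kupffer cell markers (1 of 6, Clec4f) overlapped between the ages in sum, and 0 of 8 lymphocyte markers had a promoter region. The part of these shifts in the 4 gains was not tested.

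**Figure D4:**
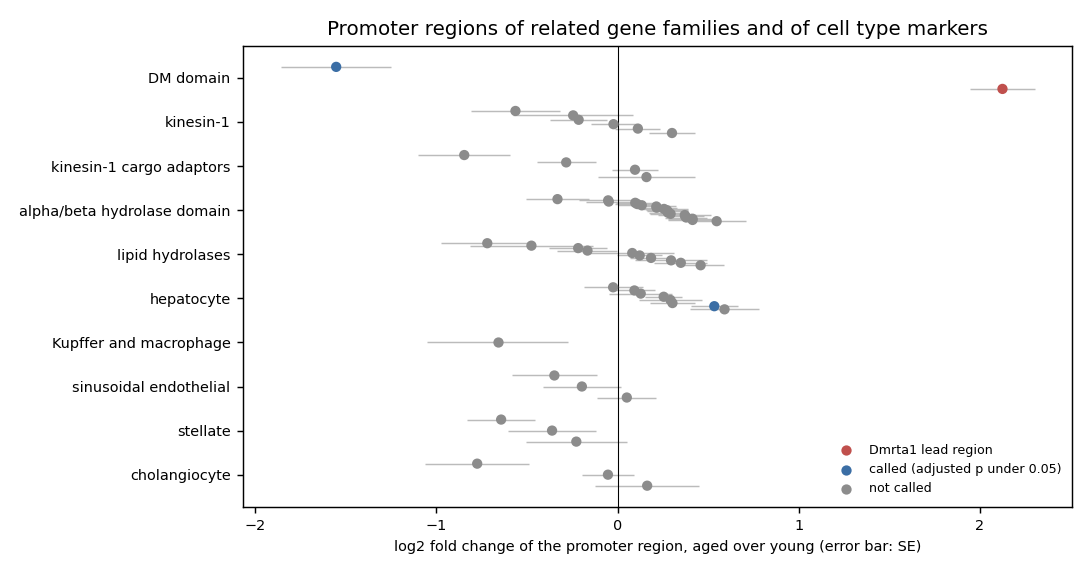
Log2 fold change (aged over young, error bars SE) of the promoter region of each gene in the related families and marker lists. Dmrta1 lies at 2.12, Dmrt2 at −1.55, and the other genes lie between −0.85 and 0.59, with Apoa1 the only other call.

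Promoters whose profile over the 7 libraries was most like that of each lead region were found among 15270 promoter regions by Pearson's r of log2 CPM. For Dmrta1 they were Mnd1 (r = 0.993), Rnf125 (0.990) and Ebp (0.988). For Klc1 they were Fkbp14 with Plekha8 (0.996), Qsox2 (0.994) and Unc5b (0.993). For Gm9797 they were Tspan12 with Gm30270 (0.995), Snord118 (0.983) and Mcm5 (0.980), and for Abhd2 Dusp6 (0.996), Mia2 with Rpl21-ps3 (0.991) and Shroom1 with Gm10447 (0.988). Their log2 fold changes ran from 0.25 to 0.56. That these are smaller than those of the lead regions follows in large part from choosing the lead regions for large gains. With 7 points in 2 age groups such values only describe these libraries.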

How the data were processed

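Per the labels and methods, the authors isolated liver nuclei, applied the Omni-ATAC protocol, trimmed reads with cutadapt 1.13, aligned them to GRCm38 with Bowtie2 2.4.1, removed reads of low mapping quality, duplicates and mitochondrial reads, called peaks per library with MACS2 2.2.7 and counted with featureCounts. The deposited values are raw counts per consensus region with a peak in at least 2 libraries.

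Columns were matched to samples by name, with 0 left over. All 55680 regions were tested with edgeR 4.0.16 (R 4.3.3; TMM, quasi-likelihood, age as the only factor, no filter on low counts, Benjamini-Hochberg at 0.05). Log2 CPM used a prior count of 2. The fit was tested on simulated data with known changes. Same-numbered young and aged libraries did not deviate together, so numbers were not taken as pairs. No libraries were duplicates. Promoters were TSS ± 200 bp of GENCODE M21. Copies were sought with blastn 2.17.0. Tables were handled in Python 3.11.15 (pandas 2.3.3) and drawn with matplotlib 3.10.9.

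Members and lists were chosen with earlier results of these data known. Named were the lead regions, their nearest neighbours, promoters in the windows, the strongest region, called neighbours, neighbours without overlap at an absolute log2 fold change of at least 0.5, the next-ranked gain, called list genes, close paralogs and the 3 most similar promoters. For Dmrta1 and Gm9797, whose windows held no neighbour, the nearest promoter beyond the window was also named. Alternatives were DESeq2 1.42.0, other normalizations (loess span 0.3), filters, left-out or summed libraries, a replicate block, thresholds and windows. RNA-seq was not analysed here.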

Additional observations from a re-analysis of the deposited data

Results flagged for a closer look

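Values per library were log2 CPM, and 40 regions were searched for an aged library far from the other 3. Such a library was found in 3, and chance alone gives about 1 in 20.

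At the Dmrta1 promoter aged replicate 3 stood at 4.782 while the other 3 lay between 5.154 and 5.189. The highest young library stood at 3.264. At the Klc1 intron region aged replicate 4 stood at 3.246, the others between 3.737 and 3.828, and young libraries reached 1.657.

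In the Abhd2 window the intergenic region at chr7:79228271-79228795, 112010 bp upstream of the lead region, had aged replicate 4 at 1.755 and the others between 2.198 and 2.234. Young libraries there ran from 2.184 to 2.719, and its log2 fold change was −0.42.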

How the results depend on the processing

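The lead regions were chosen with every aged library above every young one, which fixes their direction when libraries are left out or summed. Over 20 alternatives (19 for Abhd2, which a filter of 10 counts in every sample removed) their fold changes ran from 2.01 to 2.35 (Dmrta1), 2.01 to 2.29 (Klc1), 2.36 to 3.03 (Gm9797) and 2.32 to 3.22 (Abhd2), and moved beyond the library spread only for Abhd2, to 3.22, with offsets on mean abundance. Neighbours called higher, 0 of 36, became 1 with DESeq2, with aged libraries 1 and 4 summed, with 2 and 4 summed and with the replicate block, 3 with offsets on GC content, and 0 to 1 leaving out 1 library. Neighbours called lower, 2 of 36, became 0 with aged 1 and 3 summed, 1 with 2 and 3 summed, 4 with 2 and 4 summed, 1 with offsets on mean abundance, 0 at a threshold of 0.01, 1 within 50 kb, 4 within 250 kb, 0 within gene bodies, and 0 to 2 leaving out 1 library. Their median of −0.11 moved to −0.000605 with offsets on GC content, −0.2322 with total counts, −0.01027 within 50 kb and 0.03952 within gene bodies, and was −0.131 to −0.091 leaving out 1 library. Total counts and GC offsets moved the median of all regions by −0.12 and 0.10.

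Of 57 distinct promoter regions of the family and marker lists besides Dmrta1, 1 was called higher and 1 lower. Over the 20 other fits at 0.05 the share of all regions called higher ran from 0.0988% to 9.84% and lower from 0.239% to 5.26%. Higher calls became 0 with 10 counts in every sample, 7 with DESeq2, 0 with aged 1 and 3 summed, 2 with 1 and 4, 5 with 2 and 4, 0 with 3 and 4, 16 with GC offsets, 0 with abundance offsets, 4 with the replicate block, 0 at 0.01 and 0 to 3 leaving out 1 library. Lower calls became 0 with 10 counts in every sample, 2 with 1 and 4 or 2 and 4 summed, 0 with abundance offsets, 2 with the replicate block, 3 with total counts, 0 at 0.01 and 0 to 2 leaving out 1 library. The cause of these moves was not tested. The replicate block used young and aged libraries 1 to 3, whose same-numbered deviations correlated at −0.12, 0.06 and 0.03, so the numbers are not pairs. Low counts limit Abhd2 and Gm9797 most, with 3 to 25 reads per young library.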
